A study of Mus musculus with 3 samples.

Results

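The comparison described here set healing back skin on day 12 after wounding against the same kind of tissue on day 10. Mice of the strain C57Bl/6, aged 6 weeks, had received full thickness excision wounds of 1.5 cm2, which remove epidermis and dermis. Wound tissue with any epidermis over it was collected on day 10, day 12 or day 14, tissue from 3 mice was combined for each day, and the total RNA of each pool was measured on 1 one-colour array. All 3 groups share strain, age, wound type and site, and no unwounded or untreated group was used here. Per the labels' protocols, surrounding unwounded skin and the hair follicles at the wound edge were avoided at dissection. The comparison was made by subtracting the log2 expression value of the day 10 array from that of the day 12 array for each gene. Each of 19938 genes with an unambiguous symbol was given its peak level, the maximum of its 3 values, and the 9969 genes with a peak of 8.36 or more, the midpoint of the ranking, were compared. Each day is 1 pool, so no difference here has a replicate check or a p-value.

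A wound through the full thickness of skin is closed by keratinocytes that migrate over granulation tissue, which is rich in new vessels, macrophages and contractile fibroblasts called myofibroblasts. Once the surface is covered, keratinocytes stratify and cornify: they cross-link envelope proteins under the plasma membrane, secrete lipids between the cells and lose their nuclei, and the barrier is restored. In large wounds of mice, new hair follicles can form in the centre of the scar after closure.

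On the technical side, the medians of the 3 arrays over 35556 probe sets lay between 7.53 and 7.55. Whether differences are reduced near the highest value, 14.09, was not tested. This bears on abundant transcripts such as Krt1, Krt6b and Col1a1. For 2100 of the compared genes (21.07%) the values on day 10 and day 12 were identical, and such a difference of 0 is not a precise measurement. In 627 genes measured by several probe sets, single probe sets deviated from their gene's difference with an SD of 0.12 log2 units, and the 95th percentile of the size of the deviation was 0.20. That spread lies within the arrays and says nothing of the spread between animals. The day 10 pool stood apart in transcripts of the Y chromosome. Eif2s3y stood at 5.49, 9.59 and 8.38 on days 10, 12 and 14, Uty at 5.49, 9.0 and 7.84, and Kdm5d at 6.17, 8.42 and 7.50. These genes encode a translation factor subunit and a pair of histone demethylases, and they are carried by males only. Xist, the RNA that coats the inactive X chromosome of females, stood at 12.30, 12.05 and 12.28. The labels used here give no sex, and the part of a differing sex of the pooled mice in the other differences was not tested. In whole tissue, fewer cells of a type and less RNA per cell cannot be told apart, and this holds for every cell type list below.

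Among the compared genes, 3309 were higher on day 12 (33.2%) and 4560 were lower (45.7%), but the large differences were mostly increases. The balance of small differences depends on scaling: 30.7% lay above and 69.3% below 0 after median centring, 44.1% and 55.5% after quantile normalization, and 56.3% and 43.7% after cyclic loess. Counts of higher and lower genes in a list therefore carry little where its differences are near 0, and the counts at 1.25-fold or more are given beside them for the main lists. At least 2-fold higher were 148 genes (1.48%) and at least 2-fold lower were 18 (0.181%). At 1.5-fold the counts were 416 higher (4.17%) and 163 lower (1.64%), and at 1.25-fold they were 907 (9.1%) and 861 (8.64%). The 5th and 95th percentiles of the difference were −0.41 and 0.51, and the 1st and 99th were −0.67 and 1.18. In 4 bins of equal size, from the lowest mean level to the highest, the number at least 2-fold higher was 54, 39, 34 and 21, and the number at least 2-fold lower was 10, 4, 4 and 0. Of the 148 higher genes, 68 lay below the level filter on day 10, and of the 18 lower genes, 9 lay below it on day 12. Such genes were compared through the array on which they were high. Just inside the 2-fold limit lay Il1f8, at 1.0, and Plvap, at −1.01, and just outside it lay Slc22a23, at 0.99, and Gria1, at −0.99.

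**Figure D1:**
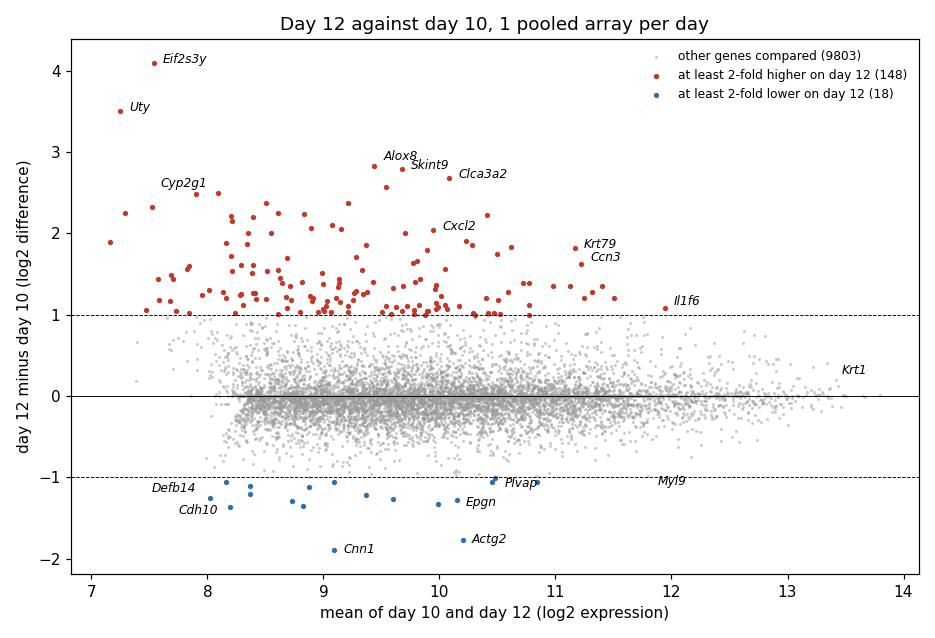
The log2 difference of each compared gene (day 12 minus day 10, vertical axis) is plotted against its mean log2 expression on these days (horizontal axis), with dashed lines at 2-fold. The 148 genes in red reach a difference of 4.09, the 18 genes in blue reach −1.89, and the largest increases lie at low and middle levels.

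The lists of the differentiated epidermis lay almost wholly on the higher side on day 12. Suprabasal keratins and desmosome proteins, which hold the upper layers together, were higher in 15 of 17 genes compared, 9 of them at least 1.25-fold, with a median difference of 0.34 against 0 over all compared genes. The keratin Krt77 stood at 8.03 on day 10, 10.39 on day 12 and 10.44 on day 14. Krt78, another keratin of the type II cluster, stood at 8.99, 10.02 and 9.99. Both thus had most of their difference between the first pair of days. The abundant differentiation keratins moved little, with Krt1 at 13.38 and 13.50 and Krt10 at 13.32 and 13.51 on days 10 and 12. Ppl, the envelope-linked plakin, differed by 0.65, Cdsn, the corneodesmosome adhesion protein, by 0.49, Pkp1 by 0.48 and Dsp by 0.45. In the opposite direction lay Dsc2, a desmosomal cadherin, which stood at 10.82, 9.86 and 9.16.

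Precursors of the cornified envelope, the protein shell of the dead surface cells, were higher in 33 of 35 genes compared. Of these, 26 were at least 1.25-fold and 6 at least 2-fold higher, and the median was 0.58, or 0.51 over all 39 measured members. Flg2, a filaggrin relative that is processed in the stratum corneum, stood at 8.70, 10.71 and 11.36. Sprr4, a small proline-rich cross-bridging protein, stood at 9.35, 11.20 and 10.92. The measured late cornified envelope genes of group 1 were all higher. Lce1f differed by 1.27, Lce1i by 1.20, Lce1l by 1.02, Lce1d by 0.98 and Lce1b by 0.92. Loricrin (Lor), the main envelope protein, was at 12.34, 13.09 and 13.30, and involucrin (Ivl), an early scaffold, was at 11.34, 11.91 and 12.28. The Sprr1 and Sprr2 members varied. Sprr2f and Sprr2b differed by 0.75 and 0.58, whereas Sprr1b and Sprr2d both differed by 0.01 and Sprr1a by −0.13. Lce3a and Lce3e, of a group known to be induced in injured epidermis, were higher by 0.78 and 0.72 on day 12 and stood at 9.83 and 10.79 on day 14, below their values of 10.63 and 11.26 on day 10.

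Enzymes, proteases and inhibitors that build and shed the horny layer were higher in 25 of 30 genes, lower in 3 and equal in 2, with a median of 0.37. Serpinb7, a serine protease inhibitor of the stratum corneum, stood at 7.41, 9.28 and 9.99. Sbsn (suprabasin) differed by 0.97, Prss8, a membrane protease needed for the barrier, by 0.86, and Tgm3, a cross-linking transglutaminase, by 0.77. Casp14, which takes part in filaggrin processing, differed by 0.66, and the cystatin Cst6 by 0.61. The kallikreins, which cut the bonds between shedding cells, did not move as 1 group. Klk5, Klk11 and Klk7 differed by 0.51, 0.38 and 0.31, Klk13 was equal, and Klk14 and Klk10 differed by −0.29 and −0.50.

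Genes of the lipid barrier were higher in 28 of 30, with 21 at least 1.25-fold and 7 at least 2-fold. The median was 0.50 over the compared and 0.50 over all 32 measured members. Of the 30, 4 lay below the filter on day 10, namely Alox8, Alox12e, Lipn and Lipk. Alox8 and Alox12e, epidermal lipoxygenases, stood at 8.02 and 8.26 on day 10, at 10.85 and 10.82 on day 12, and at 10.47 and 10.64 on day 14. Aloxe3 and Alox12b, which act in sequence on the linoleate of acylceramides, differed by 0.87 and 0.67. The epidermal lipases Lipn, Lipk and Lipm differed by 1.53, 1.52 and 0.91. Cyp2b19, a keratinocyte cytochrome P450, was at 8.98, 10.64 and 11.15. Abca12, which loads lipid into lamellar granules, differed by 0.76, Pnpla1, which makes acylceramides, by 0.78, and the ceramide enzymes Smpd3 and Acer1 by 1.06 and 1.02. The general sphingolipid enzymes Ugcg, Asah1 and Sptlc2 differed by 0.00, −0.03 and −0.15.

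Transcription factors of epidermal differentiation were higher in 20 of 22 genes and lower in none of the 22 on these arrays, with a median of 0.39. Gata3, which is needed for barrier lipid synthesis, stood at 9.30, 10.62 and 10.90. Rora differed by 0.82, Grhl1 by 0.70, Tfap2a by 0.63, Barx2 by 0.58 and Vdr by 0.52. Klf4 and Zfp750, regulators of terminal differentiation, differed by 0.45 and 0.44, whereas Grhl3 differed by 0.20 and Hes1 was equal.

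As a list, genes of basal keratinocytes had little share in these increases. Of 18 genes of the basal layer and its attachment, 10 were higher and 6 lower, 2 were at least 1.25-fold higher, and the median was 0.01, which turned below 0 after median centring and after quantile normalization. The mean level of this list was 10.59 on day 10 and 10.67 on day 12. Krt5 and Krt14, the keratins of the basal layer, stood at 13.23 and 13.30 on day 10 and at 13.24 and 13.32 on day 12. The integrin genes Itga6 and Itgb4 of the hemidesmosome differed by 0.00 and 0.02. Krt15, a keratin of resting basal cells and of the follicle, was the member with the largest difference and stood at 8.73, 10.02 and 10.67. Col17a1 and Trp63 were higher by 0.43 and 0.29. Lamb3 and Itga3, a laminin 332 chain and its migration receptor, were lower, at −0.36 and −0.24.

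Wound-activated keratinocyte genes split into members that were higher and members that were lower, 10 against 13 of 24, and the median was −0.01. At 1.25-fold or more, however, 10 were higher and 2 lower, and at 2-fold 4 and 1. Over all 28 measured members the 2-fold counts were 4 and 3. The keratins of activated epidermis, near the top of the value range, were flat on these arrays: Krt6b stood at 13.33 on both days, and Krt16, Krt17 and Krt6a differed by −0.01, −0.01 and −0.04. The interleukin 1 and interleukin 36 genes of the list, alarm signals of keratinocytes, were all higher. Il1a stood at 9.40, 10.54 and 10.46, and Il1f6, which encodes interleukin 36 alpha, at 11.40, 12.48 and 12.53. Il1f8 and Il1f9, the beta and gamma forms, differed by 1.0 and 0.37, and Il1f5, which encodes the antagonist of their receptor, differed by 0.63. Serpinb3a, a cysteine protease inhibitor, was at 8.44, 10.29 and 10.22. Antimicrobial members went both ways. The beta-defensin Defb3 was at 8.04, 8.89 and 9.28, whereas Defb14 was at 8.65, 7.39 and 7.70, and Slpi, S100a9 and S100a8 differed by −0.34, −0.30 and −0.26.

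Ligands of the Egf receptor family, which drive keratinocyte migration and growth, also diverged. Epigen (Epgn) stood at 10.79, 9.51 and 9.55, neuregulin 1 (Nrg1) at 10.11, 9.53 and 9.34, and Hbegf at 9.90, 9.55 and 9.49. Epiregulin (Ereg) went the other way, at 9.54, 10.34 and 10.42. Epgn and Ereg are neighbours on chromosome 5. Of the receptors, Erbb3 stood at 9.82, 10.78 and 11.08 and Erbb2 at 9.55, 10.16 and 10.31, while Egfr differed by −0.12. Over the 10 genes compared, 4 were higher and 6 lower, and the median of −0.07 turned to 0.12 with the brightest 25% of genes.

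Skint genes, which encode immunoglobulin-like proteins of keratinocytes and thymus that bear on epidermal gamma delta T cells, gave the largest list median. All 7 measured members had a positive difference, 4 passed the level filter, and these 4 were at least 2-fold higher. Skint9 stood at 8.28, 11.07 and 11.58, Skint10 at 7.13, 9.29 and 9.77, Skint4 at 6.21, 8.11 and 8.71, and Skint3 at 9.29, 10.66 and 10.92. The median was 2.03 over the 4 and 1.47 over the 7. Of the 4, Skint9, Skint10 and Skint4 lay below the filter on day 10 and were compared through later days. Members of this family resemble each other closely, so that probes may read more than 1 of them, and the same holds for the Lce, Sprr, Serpinb3 and Clca3a genes.

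**Figure D2:**
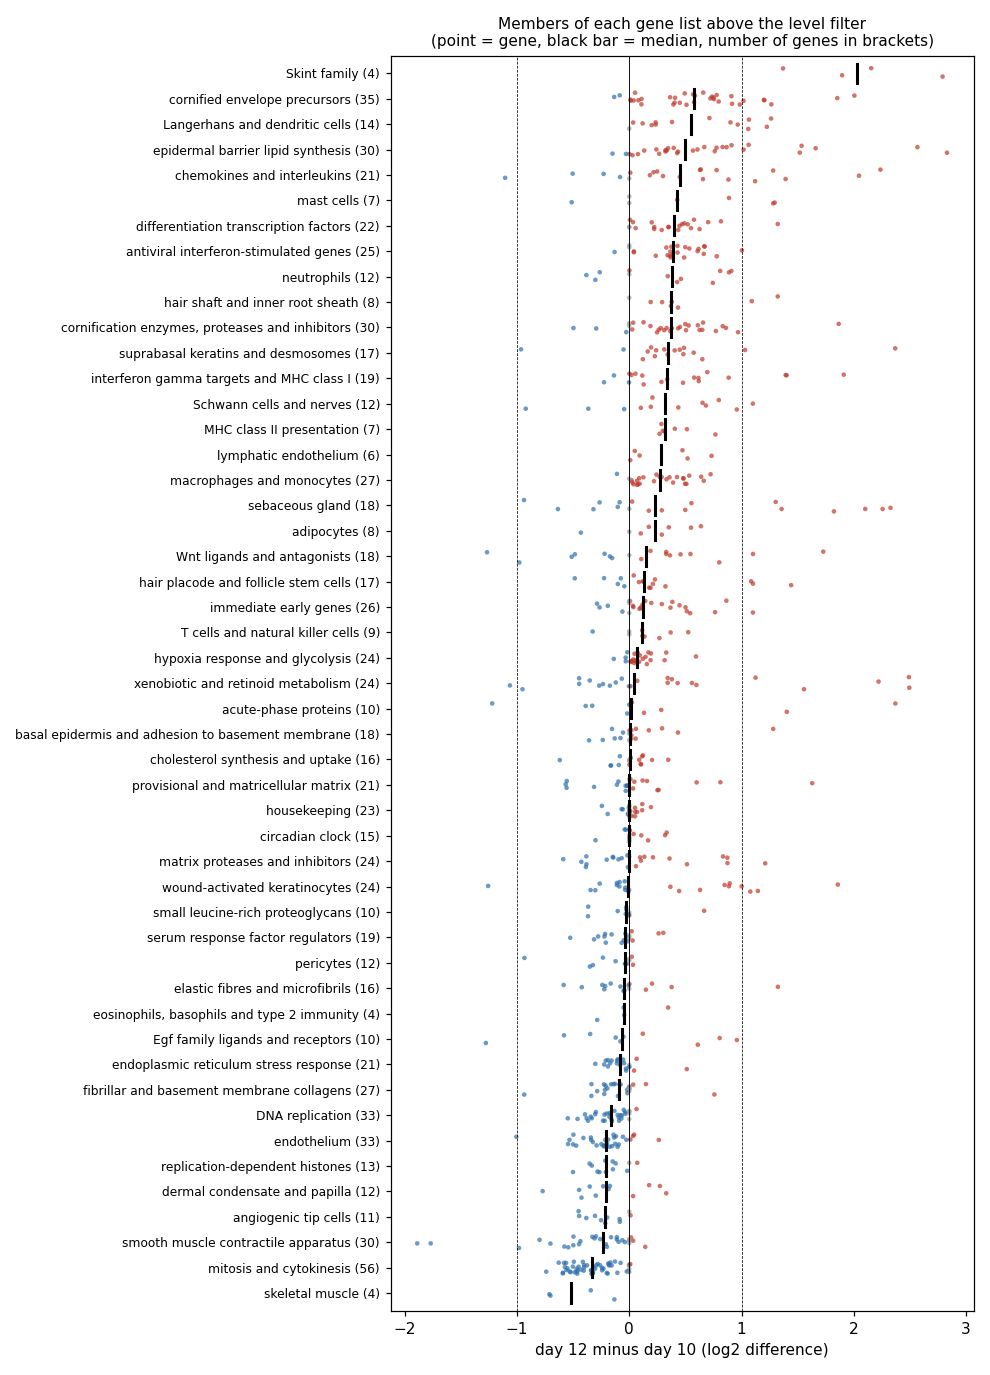
Each point is the log2 difference (day 12 minus day 10) of 1 gene above the level filter, by gene list, with the median as a black bar and dashed lines at 2-fold. Medians run from 2.03 for the 4 Skint genes to −0.52 for 4 muscle genes, the epidermal barrier lists lie to the right of 0, and the mitosis, contractile and endothelial lists lie to the left.

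Genes of skin appendages were measured on the same arrays. In the sebaceous gland list, 11 of 18 genes were higher and 6 lower, and 4 of the 18 lay below the filter on day 10. The median was 0.23, and with the brightest 25% of genes it turned to −0.043. The mean over all 25 measured members was 8.89 on day 10 and 9.39 on day 12. Elovl3, Fa2h and Far2, which elongate, hydroxylate and reduce fatty acids for sebum, stood at 6.36, 7.48 and 8.02 on day 10 and at 8.68, 9.73 and 10.12 on day 12. Krt79, a keratin of the sebaceous duct and infundibulum, was at 10.25, 12.08 and 12.17, and the desaturase Scd1 was at 10.45, 11.81 and 11.85. The desaturases that make polyunsaturated fatty acids were lower. Fads2 was at 10.63, 9.70 and 9.45 and Fads1 at 11.66, 11.02 and 10.92. The wax synthase genes Awat1 and Awat2, which mark mature sebocytes, stayed below the filter at no more than 7.90. In the hair shaft and root sheath list, 7 of 8 compared genes were higher, while 19 of the 27 measured members were below the filter. The median was 0.37 over the 8 and 0.06 over the 27. Krt25, Krt71 and Tchh lay below the filter on days 10 and 12 and were compared through day 14. Gata3, with the largest difference, is also in the list of differentiation factors. Hair shaft keratins such as Krt31, Krt34 and Krt35 stood between 6.32 and 7.32 on day 12. Of the hair placode and follicle stem cell list, 12 of 17 compared genes were higher with a median of 0.13. Tnfrsf19 stood at 8.41, 9.85 and 10.38 and Id4 at 8.15, 9.23 and 9.80, whereas Shh, Edar and Wnt10b were below the filter and equal on both days, and Sox9 differed by −0.49. The part of sebaceous and follicle cells in the epidermal differences was not tested.

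The retinoid and xenobiotic list held large differences of both signs around a median of 0.04. That median turned to −0.18 with the brightest 25% of genes. Of its 24 compared genes, 5 were at least 2-fold higher and 1 lower, and 4 lay below the filter on day 10. Sdr16c6 and Sdr16c5, epidermal retinol dehydrogenases, stood at 8.55 and 9.26 on day 10 and at 10.11 and 10.39 on day 12. Lrat, which stores retinol as ester, differed by 0.56 and Cyp26b1, which breaks down retinoic acid, by 0.38. The retinol uptake receptor Stra6 was lower, at 11.42, 10.47 and 9.74, as were the retinoic acid binding proteins Crabp2, at −0.45, and Crabp1, at −0.35. Aadac, a lipid deacetylase, stood at 6.65, 9.14 and 9.36, and Cyp2g1 at 6.85, 9.34 and 8.97. The glutathione transferase Gsta4 was at 11.37, 10.31 and 10.14.

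Immune lists were mostly higher on day 12, with differences that varied by cell type. Of 14 compared genes of Langerhans and dendritic cells, 13 were higher and none of the 14 was lower, and the median was 0.55. Of the 14, 5 lay below the filter on day 10 and were compared through later days: Ccl17, Ccl22, Mgl2, Cd209d and Epcam. Over all 25 measured, 20 were higher and 1 lower, with a median of 0.33. Ccl17 and Ccl22, chemokines that draw T cells through the receptor CCR4, stood at 7.76 and 7.93 on day 10, at 9.02 and 8.83 on day 12, and at 8.60 and 8.73 on day 14. Itgax, the CD11c integrin, was at 9.44, 10.51 and 10.81. Langerin (Cd207), which defines Langerhans cells, was below the filter at 6.11, 6.56 and 6.78. All 7 genes of MHC class II presentation were higher, from 0.27 for Ctss to 0.77 for H2-Ab1, with the class II transactivator Ciita at 8.0, 8.51 and 8.55.

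Antiviral interferon-stimulated genes moved together. Of 25 compared, 22 were higher, 19 of them at least 1.25-fold, and only Isg20 was lower, at −0.13. Irf7, which amplifies interferon production, stood at 9.72, 10.39 and 9.83. Ifih1, the MDA5 sensor of double-stranded RNA, stood at 9.59, 10.21 and 9.84, and Ifit3 at 9.71, 10.38 and 9.95. In these genes the day 12 value was the highest of the 3. To show the sequence elements that such genes can share, promoter windows from 250 bases before to 50 after the start of transcription were taken from RefSeq (GRCm38.p6), and both strands were searched for GAAA followed after any 2 bases by a second GAAA, the core of the interferon-stimulated response element. A gene with several start sites was counted where any of its windows held the motif. It was present in 10 of 19 antiviral genes with a window (52.6%) and in 3.74% of all compared genes with a window. The windows of the 5 matched genes with the largest differences follow, Ifi205 in full and 60 bases for the others, with the motif in capitals. They lie at chr1:174031706-174032005 (minus strand, Ifi205), chr19:34583382-34583441 (plus strand, Ifit3), chr1:173942493-173942552 (minus strand, Ifi203), chr2:62646206-62646265 (minus strand, Ifih1) and chr19:34640779-34640838 (plus strand, Ifit1).
Ifi205: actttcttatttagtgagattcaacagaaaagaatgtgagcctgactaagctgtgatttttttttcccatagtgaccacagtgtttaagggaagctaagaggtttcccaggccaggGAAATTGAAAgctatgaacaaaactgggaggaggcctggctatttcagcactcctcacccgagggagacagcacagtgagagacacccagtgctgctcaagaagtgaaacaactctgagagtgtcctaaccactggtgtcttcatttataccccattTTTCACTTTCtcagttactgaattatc
Ifit3: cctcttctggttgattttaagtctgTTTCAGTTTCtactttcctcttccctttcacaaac
Ifi203: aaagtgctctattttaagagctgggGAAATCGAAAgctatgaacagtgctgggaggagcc
Ifih1: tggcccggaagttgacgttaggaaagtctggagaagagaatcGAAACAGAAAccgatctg
Ifit1: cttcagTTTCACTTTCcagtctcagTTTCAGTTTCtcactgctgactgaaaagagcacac
The differences of these 5 genes were 0.78, 0.67, 0.66, 0.62 and 0.49. The 10 genes with a match had a median difference of 0.43 and the 9 without one had 0.34, so that members without these letters were higher as well.

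Targets of interferon gamma and the MHC class I pathway were higher in 16 of 19 genes, 10 of them at least 1.25-fold. The median was 0.34, or 0.31 over all 22 measured members. Of the 19, 3 lay below the filter on day 10 and were compared through later days: Gbp4, Iigp1 and Gbp8. Cxcl9, which draws activated T cells, stood at 9.28, 11.19 and 10.61. The GTPases Gbp4 and Iigp1, which act against parasites within cells, stood at 8.11 and 7.94 on day 10 and at 9.52 and 9.34 on day 12. Nlrc5, the class I transactivator, differed by 0.70, its 19 probe sets ranging from 0.31 to 1.09. Tap1 differed by 0.58 and Cd274, which encodes PD-L1, by 0.62, but the related chemokine Cxcl10 differed by −0.22 and Irf1 by 0.00. Interferon gamma itself (Ifng) was below the filter at 6.38 and 6.44 on days 10 and 12.

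Macrophage and monocyte genes were higher in 25 of 27, by less: the median was 0.27 and none of the 27 reached 2-fold. Siglec1, Cd14 and Folr2 differed by 0.72, 0.66 and 0.64, and the scavenger receptor Msr1 by 0.48. The common macrophage markers Adgre1 and Csf1r differed by 0.36 and 0.33, whereas Cd68 and the complement genes C1qc and C1qb differed by 0.03, 0.04 and −0.11. Of 12 compared neutrophil genes 8 were higher and 3 lower, 7 against 1 at 1.25-fold, and the median was 0.38. It was 0.0015 over all measured members and −0.26 with the brightest 25% of genes. Mmp8, Trem1 and Clec4e differed by 0.81, 0.74 and 0.91, S100a8, S100a9 and Mmp9 differed by −0.26, −0.30 and −0.38, and Ly6g, Mpo and Elane, which define the lineage, were below the filter.

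Chemokines and interleukins held some of the largest immune differences, with 16 of 21 genes higher, 5 at least 2-fold, and a median of 0.45, or 0.10 over all 41 measured. Cxcl3 stood at 7.71, 9.95 and 7.25 and Cxcl2 at 8.92, 10.97 and 8.61. These chemokines draw neutrophils, and their day 12 value was the high one of the 3 days. Cxcl5, which acts on the same receptor, was lower on each later day, at 8.92, 7.81 and 6.79, and Cxcl1 was below the filter at 7.57 on all 3 days. Macrophage chemokines on chromosome 11 were higher, with Ccl3 at 10.68, 11.96 and 10.44 and Ccl6 at 10.03, 11.42 and 10.85. Tnf differed by 0.88, Il18 by 0.66 and Il1b by 0.64. The stromal chemokine Cxcl12 differed by −0.50 and Ccl7 by −0.23, while Ccl2 differed by 0.18.

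Of 7 compared mast cell genes 4 were higher, among them the proteases Mcpt4, at 8.63, 9.93 and 10.56, and Cpa3, at 9.95, 11.23 and 11.63. Another mast cell protease, Mcpt2, was lower, at 8.43, 7.92 and 7.54. Kit, the stem cell factor receptor that defines the lineage, stood at 8.97 on all 3 days, and the IgE receptor chains Fcer1a and Ms4a2 were below the filter. T cell genes differed less, with a median of 0.12 over 9 genes and Cd3e at 8.64 on both days. None of the 12 measured B cell genes passed the filter. Type 2 genes were 4 in number above it, of which Il33, an alarmin of stroma and keratinocytes, was at 11.93, 11.64 and 11.25. Acute-phase genes split 5 against 5. The orosomucoid Orm1 stood at 7.32, 9.69 and 10.25 and Serpina3n at 8.73, 10.13 and 10.52, but Lrg1, a glycoprotein that acts on vessels, was at 9.97, 8.75 and 8.78, and haptoglobin (Hp) at 9.17, 8.78 and 7.58.

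**Figure D3:**
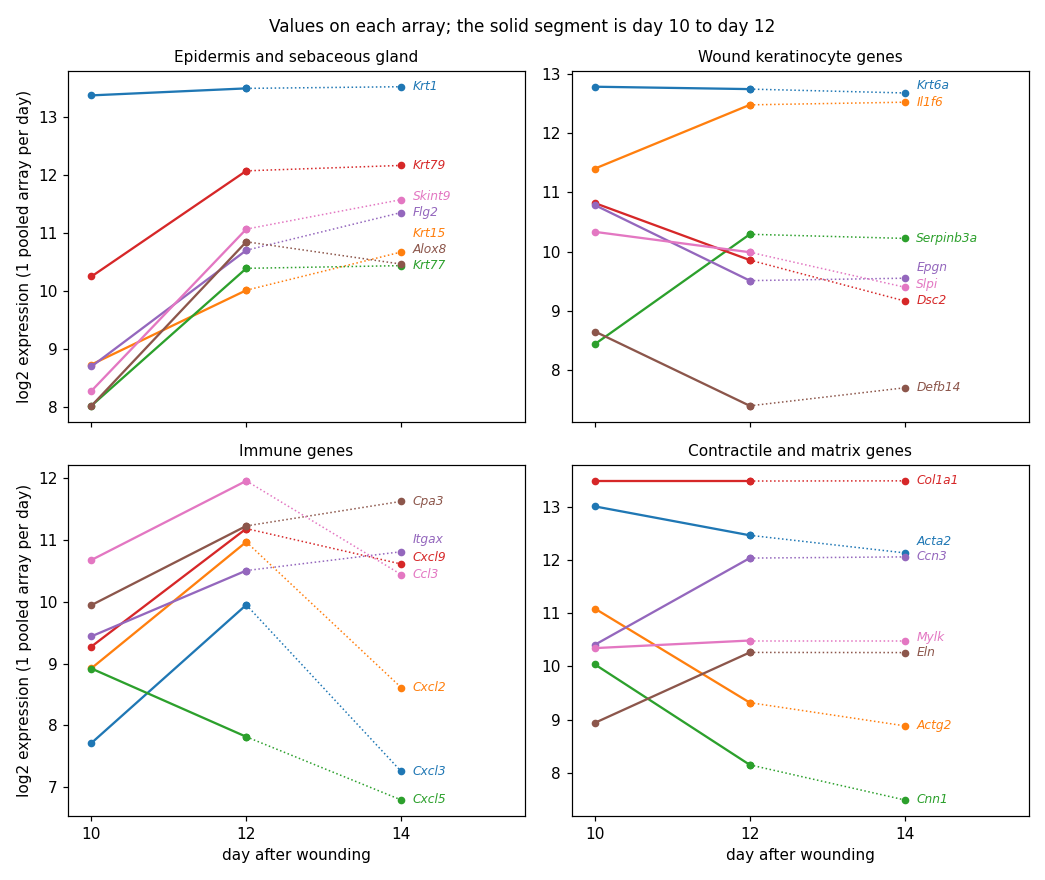
Log2 expression on each array (vertical axis) against day (horizontal axis) for 28 genes in 4 groups, with the day 10 to day 12 step as a solid line. Krt79, Il1f6, Cxcl2 and Ccn3 step up by 1.82, 1.08, 2.05 and 1.63, and Cnn1, Actg2, Epgn and Cxcl5 step down by −1.89, −1.77, −1.28 and −1.11.

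In the wound stroma, the contractile apparatus of smooth muscle and myofibroblasts was the list with the largest decreases. Of 30 compared genes, 23 were lower and 3 higher, 12 were at least 1.25-fold lower and none of the 30 was 1.25-fold higher, and the median was −0.23. Calponin 1 (Cnn1) stood at 10.04, 8.15 and 7.49, and gamma 2 smooth muscle actin (Actg2) at 11.09, 9.32 and 8.88. Alpha smooth muscle actin (Acta2), the usual myofibroblast marker, stood at 13.01, 12.46 and 12.13. Transgelin (Tagln) and desmin (Des) differed by −0.80 and −0.70, and the scaffold gene Pdlim7 by −0.58. The 3 higher members, vinculin (Vcl), talin (Tln1) and the light chain kinase Mylk, differed by 0.02, 0.03 and 0.14, and smooth muscle myosin Myh11 was equal at 9.17. The actin cross-linkers Actn1 and Flna differed by −0.26 and −0.11.

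Serum response factor drives many of these genes through the CArG box, and the promoter windows were searched for it on both strands. It was found in 5 of 24 contractile genes with a window (20.8%) and in 1.61% of compared genes with a window. The differences of the 5 matched genes ran from −0.98 to 0.02, and those of the whole list from −1.89 to 0.14. All 5 matched genes are shown, Myl9 in full and 60 bases for the rest, with the box in capitals. Their places are chr2:156775214-156775513 (plus strand, Myl9), chr1:43163958-43164017 (minus strand, Fhl2), chr14:45530235-45530294 (minus strand, Fermt2), chr10:128493025-128493084 (minus strand, Myl6) and chr14:20929148-20929207 (plus strand, Vcl).
Myl9: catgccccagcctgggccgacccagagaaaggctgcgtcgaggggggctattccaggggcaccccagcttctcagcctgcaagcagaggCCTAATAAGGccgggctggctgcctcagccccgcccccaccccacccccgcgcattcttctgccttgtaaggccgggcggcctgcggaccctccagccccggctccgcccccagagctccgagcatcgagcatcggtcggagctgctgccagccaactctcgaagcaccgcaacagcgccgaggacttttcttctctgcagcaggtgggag
Fhl2: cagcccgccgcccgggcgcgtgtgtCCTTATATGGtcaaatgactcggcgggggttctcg
Fermt2: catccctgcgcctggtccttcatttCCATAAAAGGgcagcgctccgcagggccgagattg
Myl6: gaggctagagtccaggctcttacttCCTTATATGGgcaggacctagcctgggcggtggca
Vcl: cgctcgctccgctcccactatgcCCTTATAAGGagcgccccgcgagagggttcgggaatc
Myl9, a regulatory myosin light chain, stood at 12.29, 11.31 and 10.89. The differences of Myl9, Fhl2, Fermt2, Myl6 and Vcl were −0.98, −0.45, −0.30, −0.10 and 0.02. Cnn1, with the largest decrease, is not among the matched genes, and the 5 matched genes had a median of −0.30 against −0.20 for the 19 without a match. As a list, the regulators differed less, with a median of −0.03 over 19 compared genes, but single members did not all do so. Srf was equal at 9.84, and its cofactors Mrtfa and Mrtfb differed by −0.05 and 0.03. The regulator Myocd was below the filter and differed by −0.33. The growth factors Tgfb1, Tgfb3 and Tgfb2, which drive the myofibroblast state, differed by −0.22, −0.31 and −0.53.

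Matrix genes differed less than contractile genes. Of 27 collagen and collagen-processing genes, 18 were lower, 3 higher and 6 equal, with a median of −0.09. Col1a1, Col1a2 and Col3a1, the main fibrillar chains, stood at 13.48, 13.35 and 12.96 on day 10 and at 13.48, 13.35 and 12.99 on day 12. The 3 members at least 1.25-fold lower act on collagen after synthesis, with the lysyl oxidase relative Loxl3 at 10.61, 9.67 and 9.39, the lysyl hydroxylase Plod2 at 10.55, 10.22 and 9.72, and the collagen chaperone Serpinh1 at 12.18, 11.84 and 11.75. Loxl4 went the other way by 0.76, its 2 probe sets giving 0.48 and 1.04, and the prolyl hydroxylases P4ha1 and P4ha2, from the hypoxia list, differed by 0.05 and 0.09.

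Matricellular proteins, which tune how cells read the matrix, went both ways around a median of 0.00. Ccn3 stood at 10.41, 12.04 and 12.06 and Thbs4 at 9.80, 10.61 and 10.67. Ccn4, a relative of Ccn3, was lower, at 11.04, 10.48 and 10.26, as were the tenascin Tnn, at 12.87, 12.30 and 11.91, and the hyaluronan synthase Has2, at 10.17, 9.61 and 9.42. Fibronectin (Fn1) and periostin (Postn) differed by 0.05 and 0.01. Elastin (Eln) stood at 8.94, 10.26 and 10.26, while most of its microfibril partners were lower, with 10 of 16 genes of that list below 0, among them Emilin1 at −0.58 and Fbln1 at −0.42. Among the small leucine-rich proteoglycans Prelp differed by 0.67, Podn and Fmod both by −0.37, and decorin (Dcn) by −0.03.

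Proteases of the matrix and their inhibitors also split, 11 against 12 of 24, around a median of −0.01 that turned above 0 after cyclic loess. Stromelysin 1 (Mmp3) stood at 9.79 on day 10 and 9.98 on day 14, and its day 12 value was higher than that of day 10 by 1.21, while macrophage elastase (Mmp12) stood at 11.74, 12.58 and 12.54. The inhibitor Timp3 and the aggrecanase Adamts5 both differed by 0.87. On the lower side lay Mmp23 at −0.59, the plasminogen activator Plat at −0.43 and Adamts4 at −0.39, and the abundant Mmp2 and Mmp14 differed by −0.01 and −0.15.

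Wnt genes diverged by member, with 10 of 18 higher and 7 lower, and the median of 0.15 turned to −0.20 with the brightest 25% of genes. The secreted antagonist Sfrp4 stood at 7.34, 9.07 and 9.65, whereas its relative Sfrp1 stood at 11.32, 10.34 and 10.46. Among ligands, Wnt3 and Wnt4 differed by 0.80 and 0.55, and Wnt2b, Wnt9a and Wnt5a by −1.27, −0.51 and −0.22. The feedback targets Axin2 and Znrf3 differed by 0.33 and 0.36. Of the dermal condensate and papilla list, 8 of 12 compared genes were lower, among them Sox18 at −0.77, Hey1 at −0.45 and Inhba at −0.43. Over all 26 measured members 11 were lower and 9 higher, with a median of 0.00. The papilla genes Corin, Rspo2, Wif1 and Notum were below the filter with equal values on both days.

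Blood vessel genes were lower together. In the endothelial list, 29 of 33 compared genes were lower and 4 higher, with 10 at or past 1.25-fold, and the list's median was −0.21. Plvap, the diaphragm protein of fenestrated and new vessels, stood at 10.98, 9.98 and 10.07. Esam, an adhesion protein, differed by −0.55, the angiopoietin receptors Tie1 and Tek by −0.53 and −0.50, and the adrenomedullin receptor partner Ramp2 by −0.50. The pan-endothelial genes Pecam1 and Cdh5 stood at 11.21 and 12.22 on day 10 and differed by −0.21 and −0.12. Vwf, stored in endothelial granules, differed by 0.03 and Sox7 by 0.26. Tip cell genes, which mark sprouting vessels, were lower in 9 of 11, with Angpt2 at 9.91, 9.46 and 9.24. Pericyte genes lay nearer to 0, with a median of −0.04, although the connexin Gja4 of arteries stood at 9.69, 8.75 and 8.63. The 6 lymphatic genes compared were all higher, from 0.01 for Flt4 to 0.73 for Fgl2, but Prox1, the factor that defines lymphatic endothelium, was below the filter at 6.74 and 6.97.

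Genes of cell division were mostly lower. Of 56 mitosis and cytokinesis genes, 52 were lower, 31 of them at least 1.25-fold, and 3 equal, and the median was −0.33. Of all 74 measured members, filtered or not, 69 were lower, and their median was −0.30. Cyclin B2 (Ccnb2) stood at 11.43, 10.69 and 10.75, the kinesin Kif2c at 9.23, 8.60 and 8.36, and Cdk1 at 10.60, 10.08 and 10.00. The exception was Mki67, the usual proliferation marker, at 10.73, 10.74 and 10.62. DNA replication genes were lower by less, 28 of 33 with a median of −0.16 and 7 at least 1.25-fold lower. Ccne1, the G1 cyclin E1, differed by −0.55, the ribonucleotide reductase subunit Rrm2 by −0.46 and the helicase subunits Mcm2 to Mcm7 by 0.00 to −0.16, while Pcna differed by 0.06. Replication-dependent histone genes were lower in 11 of 13, with a median of −0.21. Cdkn1c, an inhibitor of cyclin-dependent kinases, was also lower, at 10.98, 9.93 and 9.79.

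Promoters of mitotic genes are known for pairing CCAAT boxes with a cell cycle homology region, whose core is TTTGAA. A match on either strand of TTTGAA was found in 34 of 48 mitotic genes (70.8%) against 14.0% of compared genes, and CCAAT in 34 of 48 (70.8%) against 42.2%. Both were present in 28 of 48 (58.3%) and in 6.86% of compared genes. CCAAT by itself was not particular to the mitotic list. It was present in 10 of 14 interferon gamma and MHC class I genes (71.4%), a list that was mostly higher on day 12. In DNA replication genes it was present in 15 of 27 (55.6%), and in cornified envelope genes in 9 of 31 (29.0%). The nearest TTTGAA had its median position at −1 in the mitotic genes and at −134 in the other 1088 compared genes with a match, counted from the start of transcription. The 5 matched genes with the largest decreases are shown, Ccnb2 in full and 60 bases for the others, with both motifs in capitals on either strand. They lie at chr9:70421505-70421804 (minus strand, Ccnb2), chr4:117178843-117178902 (minus strand, Kif2c), chr6:124830166-124830225 (plus strand, Cdca3), chr8:116921704-116921763 (plus strand, Cenpn) and chr7:80294419-80294478 (plus strand, Prc1).
Ccnb2: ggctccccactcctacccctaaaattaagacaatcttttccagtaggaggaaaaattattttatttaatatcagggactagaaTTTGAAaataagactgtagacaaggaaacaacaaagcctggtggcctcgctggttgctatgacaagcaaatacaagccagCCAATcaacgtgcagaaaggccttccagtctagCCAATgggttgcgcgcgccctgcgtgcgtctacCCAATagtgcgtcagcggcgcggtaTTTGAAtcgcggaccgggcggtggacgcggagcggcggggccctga
Kif2c: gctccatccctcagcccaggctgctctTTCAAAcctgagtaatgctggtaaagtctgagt
Cdca3: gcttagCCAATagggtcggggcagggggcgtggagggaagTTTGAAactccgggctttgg
Cenpn: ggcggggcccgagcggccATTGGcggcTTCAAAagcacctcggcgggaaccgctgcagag
Prc1: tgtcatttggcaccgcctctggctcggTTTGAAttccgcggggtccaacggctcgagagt
Ccnb2, Kif2c, Cdca3, Cenpn and Prc1 differed by −0.74, −0.63, −0.59, −0.56 and −0.56. Mitotic genes with TTTGAA had a median of −0.34 and the 14 without it had −0.32, and Mki67, Cenpf and Iqgap3, which differed by 0.01, 0.00 and 0.00, hold it as well. In DNA replication genes TTTGAA was present in 4 of 27 windows (14.8%).

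Other tissues of the skin gave shorter accounts. Schwann cell and nerve genes were higher in 9 of 12, with a median of 0.32 that turned to −0.046 with the brightest 25% of genes. Erbb3, the neuregulin receptor of Schwann cells that keratinocytes also make, and Egr2, the myelination factor that is also an immediate early gene, had the largest differences, 0.96 and 1.10, and Gfra3, a nerve growth receptor, stood at 7.48, 8.28 and 8.65. Mal and Ncam1 were lower, at −0.92 and −0.36. The fat cell genes Adipoq, Lep and Plin1 were below the filter at 5.74, 5.90 and 6.87 and equal on both days, although 6 of 8 compared adipocyte genes, which other cells use too, were higher. Of 26 skeletal muscle genes, 22 were below the filter. In the 4 above it the difference was −0.71 for Acta1, −0.70 for Des, −0.34 for Actc1 and −0.13 for Tnnt2, and desmin is also in the contractile list. The pigment genes Tyr, Dct and Pmel were below the filter, and neither of the 2 compared melanocyte genes was higher.

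Of 26 immediate early genes 19 were higher, 9 of them at least 1.25-fold, and 4 were lower, none of the 26 by 1.25-fold. Examples were Egr2, which differed by 1.10, and Fos at 8.64, 9.51 and 8.53, Egr1 at 9.19, 9.96 and 9.41 and Dusp1 at 11.47, 12.01 and 11.75. Hypoxia and glycolysis genes were higher in 20 of 24 with a median of 0.07, but only 2 of the 24 were at least 1.25-fold higher. Egln3, the oxygen-sensing hydroxylase, differed by 0.59. Endoplasmic reticulum stress genes were lower in 16 of 21 with a median of −0.08, none of the 21 by 1.25-fold. Over all compared genes 9.1% were at least 1.25-fold higher and 8.64% lower, so the counts of these 2 lists carry little. Cholesterol genes had a median of 0.01, although Insig1, which restrains the pathway, differed by −0.62. The clock genes Dbp, Clock and Arntl were equal on days 10 and 12, and Per1 differed by −0.30. The 23 housekeeping genes had a median of 0.00, with Actb at 13.65 on both days, and none of the 23 differed by 1.25-fold.

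Some genes that lie next to each other on the chromosome shared their increase. Of 406 protein-coding genes at least 1.5-fold higher, 84 (20.7%) lay in 21 runs, a run being at least 3 such genes within 10 neighbouring protein-coding genes. Of 159 genes at least 1.5-fold lower, 3 (1.89%) lay in 1 run, which consists of Fads3, Fads2 and Fads1 on chromosome 19. Runs form more readily among 406 genes than among 159, so these percentages are not comparable. The share for as many genes placed at random was not computed. One of the 21 runs is Kdm5d, Eif2s3y and Uty on chromosome Y, the transcripts in which the day 10 pool stood apart. The longest run lies in the epidermal differentiation complex on chromosome 3, where 15 of 24 neighbouring genes from Sprr4 to Lce3e were at least 1.5-fold higher with a median of 0.92, and all 20 compared genes of the stretch were above 0. Runs of 5 were Serpinb genes on chromosome 1, chemokine and Wfdc genes on chromosome 11, and Slc5a9 with Skint genes on chromosome 4. Members of other families in runs were the lipoxygenases Aloxe3, Alox12b and Alox8, the keratins Krt77, Krt79 and Krt78, the interleukin 36 genes, and the arylacetamide deacetylases. Neighbours did not all follow. Serpinb2 differed by −0.38 within its run, Ifi202b by −0.31 beside the higher Ifi205, Epgn by −1.28 beside Ereg, and Acta2 by −0.54 within the run of Lipk, Lipn, Lipm and Ifit3.

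**Figure D4:**
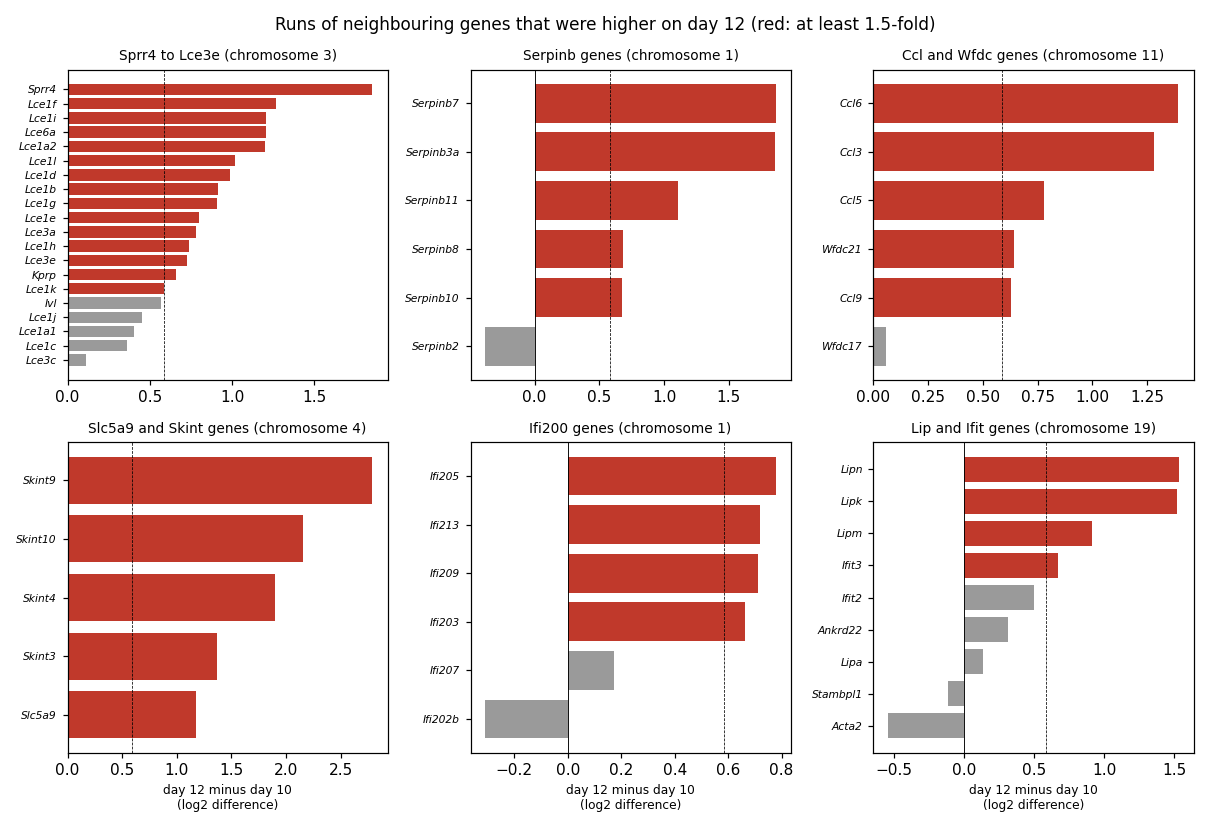
Bars give the log2 difference (day 12 minus day 10) of the compared genes in the 6 runs with most members, sorted by size, with genes at least 1.5-fold higher in red and a dashed line at 1.5-fold. In the chromosome 3 run all 20 bars are above 0, whereas Serpinb2, Ifi202b, Acta2 and Stambpl1 lie below 0 in theirs.

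Outside the lists, 82 of the 148 genes at least 2-fold higher remained. Those among the 30 largest were Clca3a2, Defb6, Mill1, Cyp17a1, Oas1f, Tnxb, Lpo and Slc6a14. Clca3a2, of a family of secreted metalloproteases of epithelia, stood at 8.74, 11.43 and 11.73, and the beta-defensin Defb6 at 9.30, 11.53 and 11.71. Tenascin X (Tnxb), a matrix protein of dermal collagen, stood at 7.54, 9.56 and 9.92. Cyp17a1, a steroid hydroxylase, stood at 7.86, 9.93 and 10.38, and Lpo, lactoperoxidase, at 7.35, 9.35 and 9.77. All of these were as high or higher on day 14, except Mill1 at 9.49 and 9.35. The genes in the rest of this paragraph were chosen after their values were seen. Hal, the histidase that makes urocanic acid in the horny layer, stood at 10.72, 12.07 and 12.53. Slurp1 and Slurp2, secreted proteins of keratinocytes, stood at 7.84 and 9.09 on day 10 and at 9.53 and 10.49 on day 12. Pou2f3, an epidermal transcription factor, and Ahr, the aryl hydrocarbon receptor, differed by 1.25 and 1.07. Chil1 and Chit1, chitinase family genes of macrophages and epithelia, differed by 1.83 and 1.56. Nos2 and Acod1, enzymes of activated myeloid cells, stood at 7.90 and 9.49 on day 10, at 9.35 and 10.61 on day 12 and at 7.49 and 9.18 on day 14.

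The motif TGANTCA, which AP-1 factors can bind where N is C or G, was searched in the windows of the higher genes. Any base was allowed at N, so the matches include other forms, such as TGAATCA in Mill1 and Flg2 below. It was present in 26 of 110 genes at least 2-fold higher that have a window (23.6%) and in 6.86% of compared genes. The lists varied. Cornified envelope genes had it in 12 of 31 (38.7%), antiviral genes in 7 of 19 (36.8%) and cornification enzyme genes in 7 of 24 (29.2%). Interferon gamma targets had it in 3 of 14 (21.4%), barrier lipid genes in 2 of 24 (8.33%) and suprabasal genes in 0 of 6. Windows of 60 bases are shown for 4 matched genes with large increases, with the motif in capitals. Their places are chr7:18245325-18245384 (plus strand, Mill1), chr17:34670453-34670512 (plus strand, Tnxb), chr3:93197177-93197236 (plus strand, Flg2) and chr5:92328030-92328089 (minus strand, Cxcl9).
Mill1: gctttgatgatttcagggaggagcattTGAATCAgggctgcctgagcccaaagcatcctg
Tnxb: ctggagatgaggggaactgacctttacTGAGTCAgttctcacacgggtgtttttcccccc
Flg2: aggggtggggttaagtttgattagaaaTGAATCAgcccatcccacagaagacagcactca
Cxcl9: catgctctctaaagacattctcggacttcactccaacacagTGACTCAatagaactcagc
Mill1, Tnxb, Flg2 and Cxcl9 differed by 2.20, 2.01, 2.0 and 1.91. Among the higher genes, the 26 with the motif had a median of 1.35 and the 84 without it had 1.31. Within the cornified envelope list the 12 matched genes had the smaller median, 0.29 against 0.74 for the 19 others, and 8 of the 12 were Sprr genes. TGANTCA and TTTGAA overlapped in 69 promoters, CArG boxes and CCAAT in 75, and CCAAT and TTTGAA in 47, over all promoters of the table. The palindrome AACCGGTT of grainyhead factors was present in 0 of the 110 windows and in 0.288% of compared genes.

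**Figure D5:**
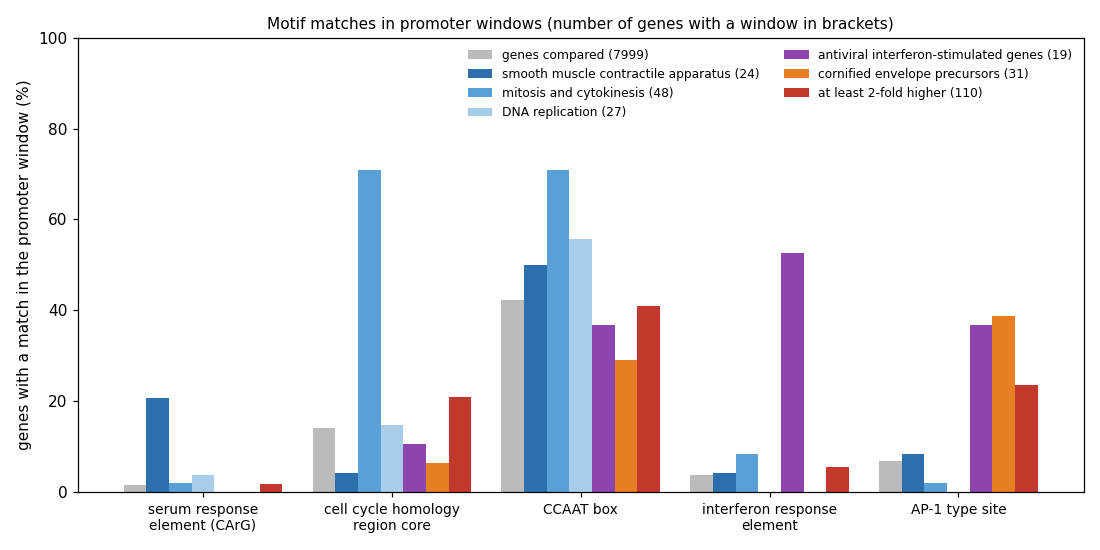
Bars give the percentage of genes with a motif match in the promoter window (vertical axis) for 5 motifs and 7 gene sets. The cell cycle core stands at 70.8% in mitotic genes against 14.0% of compared genes. The interferon element stands at 52.6% in antiviral genes against 3.74%. The AP-1 type site (TGANTCA) stands at 38.7% in cornified envelope genes and 36.8% in antiviral genes against 6.86%.

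The 18 genes at least 2-fold lower were few and varied. Beside Cnn1, Actg2, Epgn, Wnt2b, Defb14, Lrg1, Cxcl5, Gsta4, Cdkn1c and Plvap, they were Cdh10, Cck, Fibin, Ecrg4, Rpp25, Rasl11b, Steap1 and Lrrn3. Cholecystokinin (Cck), a peptide hormone, stood at 9.50, 8.15 and 7.62, and Fibin, a secreted protein, at 10.65, 9.32 and 8.59. The cadherin Cdh10 stood at 8.88, 7.51 and 7.19, and Ecrg4, a secreted peptide precursor, at 9.37, 8.08 and 7.90. In these 4 genes the day 14 value was lower again. Rasl11b, at 9.43, 8.31 and 8.49, was not.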

How the data were processed

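Per the labels, each of days 10, 12 and 14 is 1 pool of total RNA from 3 mice, hybridised to its own one-colour array. The deposited values are log2 expression per probe set, a scale taken from their range of 4.37 to 14.09. The submitters' processing notes name RMA and Partek 6.6 without saying which step each did.

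Of 35556 probe sets, 21789 carried 1 gene symbol in the platform annotation, 1621 carried several and were left out, and 12146 were not listed there. Values were averaged per symbol into 19938 genes, 999 of them with several probe sets, and 9969 passed the level filter of 8.36. Differences are day 12 minus day 10. With 1 array a group no test was run, and a list is described by its counts and median beside those of all compared genes. The single arrays limit the precision.

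The members and gene lists were chosen with earlier results of these data known. Genes were named by rule: the 30 largest increases, genes at least 2-fold lower, the 5 largest differences of each list, a set of common markers and members of neighbouring runs. Other list members were named after their values were seen. Promoter windows and gene order came from RefSeq (GRCm38.p6), with windows for 7999 of the compared genes. The sequence of 1 matched window is not reported here.

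Alternatives were the brightest probe set of each gene, cyclic loess, quantile normalization, median centring, other level filters and a 1.5-fold limit. Scripts were tested on simulated data and used Python 3.11.15, numpy 2.4.6, pandas 2.3.3, R 4.3.3 and limma 3.58.1.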

Additional observations from a re-analysis of the deposited data

How the results depend on the processing

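Median centring, quantile normalization and cyclic loess gave medians over the compared genes of −0.013, −0.0095 and 0.0097, and moved no median of the 50 lists by more than 0.033. The lists whose median changed sign lay close to 0: acute-phase, basal epidermis and cholesterol genes after centring, basal epidermis after quantile normalization and matrix proteases after loess. With these scalings 141 to 150 genes were at least 2-fold higher and 17 to 19 lower. The brightest probe set of each gene left both counts at 148 and 18 and moved no list median by more than 0.090. The level filter and the fold limit mattered more. At 1.5-fold the counts were 416 higher and 163 lower in place of 148 and 18, and with the brightest 25% of genes they were 55 and 4. With that filter the medians for neutrophils (−0.26), Wnt genes (−0.20), Schwann cells (−0.046) and sebaceous gland (−0.043) turned below 0, as did xenobiotic genes (−0.18), and that for Egf genes (0.12) turned above it. Others there were −0.28 for DNA replication, 0.31 for dendritic cells, 0.55 for adipocytes, 0.63 for chemokines, −0.33 for dermal papilla, and 0.48 for interferon gamma targets. With no level filter they were 0.33 for dendritic cells, 1.47 for Skint genes, 0.061 for hair shaft, 0.10 for chemokines, 0.16 for lymphatic and for mast cells, 0.0015 for neutrophils, and 0.00 for Wnt genes, adipocytes, dermal papilla and skeletal muscle. Of 290 named genes, 5 moved with the brightest probe set: Bnip3 to 0.32, Foxf1 to −0.13, Loxl4 to 0.48, Nlrc5 to 0.35 and Tk1 to −0.25. The cause of these shifts was not tested beyond the change in genes counted. With 1 pool a day no library could be left out, and no paired analysis was possible because the groups have no replicates.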
